A study of Mus musculus with 24 samples.

Results

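The proneural basic helix-loop-helix (bHLH) factors examined here are 8 genes, Neurog1, Neurog2, Neurog3, Neurod1, Neurod4, Atoh1, Nhlh1 and Nhlh2, chosen by name from the 23119 genes listed in the expression table. All 8 were listed, each as an entry of its own that overlapped no other entry. With a mean of at least 1 FPKM (fragments counted for each kilobase of a transcript, relative to all mapped fragments) over the 24 libraries required for testing, 6 of the 8 were tested among 12105 genes. Neurog3, with a mean of 0.497 FPKM, and Atoh1, with a mean of 0.101 FPKM, fell below that level and are described from their values.

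RNA was sequenced from JB4/EI7HZ2 cells, a female F1 hybrid mESC line with a JF1 mother and a B6 father, and from a SmcHD1-mutant (KO) line derived from it by CRISPR–Cas9. SmcHD1 is a chromatin protein with a role in maintaining X-chromosome inactivation. Each line was sampled as mESCs in serum with 2i and LIF, as neurectoderm at day 7 and day 9 of differentiation through epiblast-like cells and aggregates, and as neural stem cells (NSCs), giving 8 groups of 3 replicates. Both lines carry a zeocin resistance cassette on the JF1 X chromosome and a neomycin resistance cassette on the B6 X chromosome, by which drug selection keeps cells with both X chromosomes. NSCs were derived by a longer protocol that ends in FGF2 and EGF, so their comparison with day 9 also compares culture conditions. WT and KO are 1 line each, so genotype and line cannot be told apart, and p-values describe only the spread between the replicate cultures.

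Proneural factors are transcription activators that push neural progenitors to leave the cell cycle and become neurons. They bind the E-box (CANNTG) as dimers with the broadly made E proteins; Id proteins take up the E proteins and so block them, and Hes and Hey proteins, switched on by Notch signalling, repress proneural genes, in part through the N-box (CACNAG). Neurog1, Neurog2 and Atoh1 act early, in dividing progenitors of different territories, and Atoh1 marks the most dorsal hindbrain and spinal cord. Neurog3 is best known from the endocrine pancreas. Neurod1, Neurod4, Nhlh1 and Nhlh2 come on later, in cells already becoming neurons, and several of them are targets of the earlier factors.

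The bases before the start site are shown for 2 gene pairs, Neurod1 with Neurod4 and Nhlh1 with Nhlh2, because the first pair had the largest differences between KO and WT at day 9 and the second pair, the most abundant, fell on either side of the test's threshold. Sequences are from RefSeq (GRCm38.p6), 250 bases ending at the base before the start site, 5′ to 3′ on the coding strand, with E-box and N-box matches on either strand in capitals:
Neurod1 (chr2:79456637-79456886, minus strand): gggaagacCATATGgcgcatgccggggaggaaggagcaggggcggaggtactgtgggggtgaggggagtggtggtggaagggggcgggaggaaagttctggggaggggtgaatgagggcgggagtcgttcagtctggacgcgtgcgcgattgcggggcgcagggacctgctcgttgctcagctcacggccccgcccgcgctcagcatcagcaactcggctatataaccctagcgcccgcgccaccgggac
Neurod4 (chr10:130280255-130280504, minus strand, the first of its annotated start sites): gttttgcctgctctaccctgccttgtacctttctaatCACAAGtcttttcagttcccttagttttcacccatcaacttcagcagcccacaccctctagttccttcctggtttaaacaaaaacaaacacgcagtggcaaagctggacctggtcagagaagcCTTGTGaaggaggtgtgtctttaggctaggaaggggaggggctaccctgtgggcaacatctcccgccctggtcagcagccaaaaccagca
Nhlh1 (chr1:172057597-172057846, minus strand): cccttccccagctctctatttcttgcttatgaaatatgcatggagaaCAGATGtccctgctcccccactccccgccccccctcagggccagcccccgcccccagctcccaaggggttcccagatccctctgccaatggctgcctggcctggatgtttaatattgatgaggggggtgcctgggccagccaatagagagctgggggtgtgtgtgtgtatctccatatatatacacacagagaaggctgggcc
Nhlh2 (chr3:102009895-102010144, plus strand): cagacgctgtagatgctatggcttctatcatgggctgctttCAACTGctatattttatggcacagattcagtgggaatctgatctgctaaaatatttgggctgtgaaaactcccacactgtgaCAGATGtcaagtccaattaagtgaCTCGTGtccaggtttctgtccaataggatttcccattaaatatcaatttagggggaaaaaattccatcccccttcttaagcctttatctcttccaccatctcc

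The Neurod1 window held 1 E-box (CATATG) and the Neurod4 window held no E-box but 2 N-boxes (CACAAG, and CTTGTG for the other strand). A single E-box (CAGATG) lay in the Nhlh1 window, 203 bases before the start. In Nhlh2 the window held 2 E-boxes (CAACTG and CAGATG) and 1 N-box (CTCGTG). No match overlapped another. Such letters are common: 66.2% of 32851 promoters of the same length held at least 1 E-box, 36.7% at least 1 N-box and 8.18% at least 2 N-boxes. Among the other genes, Neurog3 had 1 E-box (CAGCTG), and no match to either motif was found in these windows of Neurog1, Neurog2 and Atoh1.

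Library depth varied 1.42-fold between the shallowest and the deepest library, as worked out from the smallest steps of low genes, and the lowest Pearson correlation of replicates was 0.955. The targeted gene, Smchd1, was lower in KO in all 4 stages, at 4.08 ± 0.302 FPKM against 22.0 ± 0.251 FPKM (SD, n = 3 each) at day 9. Among the stage markers in WT, Pou5f1 averaged 1359 FPKM in mESCs, 211 FPKM at day 7, 38.6 FPKM at day 9 and 0.385 FPKM in NSCs, and Nanog, which shares its entry with Nanogpd, 856 FPKM in mESCs and 0.479 FPKM in NSCs. Sox1 stood at 0.423 FPKM in WT mESCs, 38.7 FPKM at day 7, 27.7 FPKM at day 9 and 1.87 FPKM in NSCs, and Pax6 at 0.117, 14.9, 36.8 and 22.2 FPKM in the same order. Tubb3 was highest at day 9 (361 FPKM, and at most 47.1 FPKM at the other stages). Olig2 (338 FPKM) and Fabp7 (3862 FPKM) were highest in WT NSCs, while Nes there (160 FPKM) overlapped WT day 9 (110 FPKM). The summed level of the 4 neurectoderm markers did not follow the stages: it was highest in WT mESCs, at 315 FPKM against 201 FPKM at day 7, 222 FPKM at day 9 and 224 FPKM in NSCs. Sox1 and Pax6 gave almost none of the sum in WT mESCs, which came from the other markers of the list, Sox2 and Zfp521.

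Neurog1 was the 1 member with an appreciable level in mESCs. Its level was 2.62, 7.42 and 2.90 FPKM in the 3 WT libraries and 5.32, 7.16 and 6.92 FPKM in the KO libraries, or 93 and 130 reads in all. The groups overlapped through the second WT library. In limma on log2(FPKM + 1), Neurog1 did not pass the test between KO and WT mESCs (difference 0.59, SE 0.256, adjusted p = 0.576), and no member did, where 0.529% of all tested genes were called (at an unadjusted p under 0.05, 1 member and 927 genes). Without the second WT library the difference was 0.98 with an adjusted p of 0.0397.

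Neurog1 then fell to between 0.277 and 0.599 FPKM in WT day 7 cells and between 0.142 and 0.566 FPKM in KO day 7 cells, before rising again by day 9. The fall from mESCs to day 7 was 1.78 in WT and 2.49 in KO on the log2 scale, with adjusted p-values of 3.97e-06 and 2.61e-08. Of all tested genes, 59.2% in WT and 61.3% in KO were called between these stages in either direction. Neurod1, Neurod4, Nhlh1, Nhlh2 and Neurog3 were listed at 0 in all 6 mESC libraries, and Neurog2 was above 0 in 1 of them, at 0.102 FPKM. At day 7 none of the 8 genes exceeded 1.6 FPKM in any library, and the libraries of all neighbours in the order of WT levels overlapped except Neurod1 and Atoh1. The highest mean there was 0.982 ± 0.622 FPKM (SD, n = 3), for Neurog2 in WT. A single read was worth about 0.06 to 0.14 FPKM for these genes, so these levels rest on few reads, and a fitted change from mESCs at 0 depends on the pseudocount of 1.

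**Figure D1:**
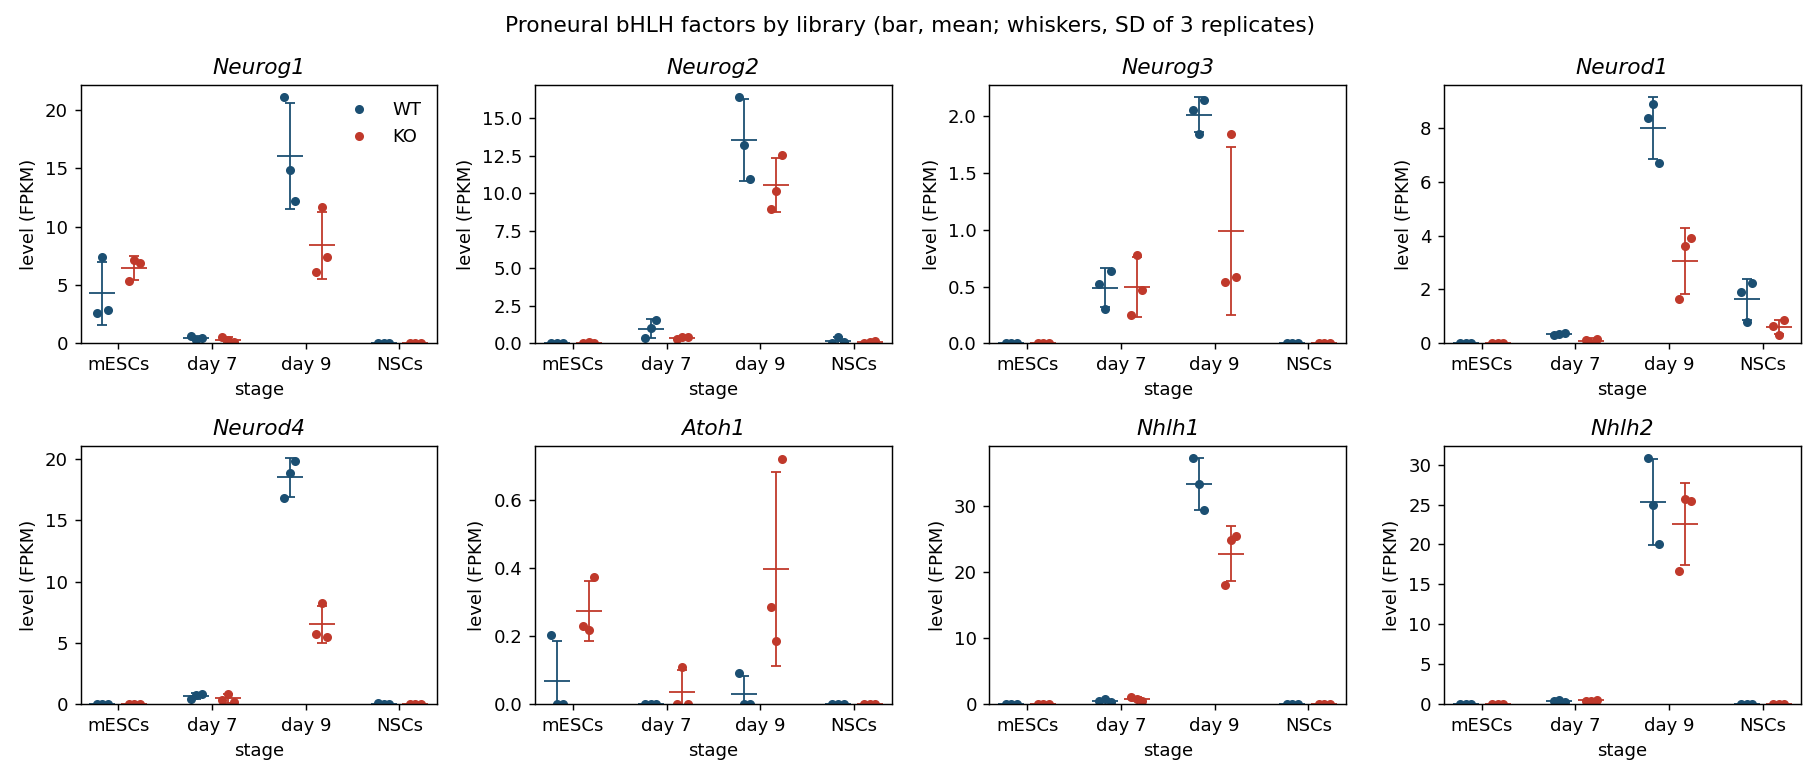
Level (FPKM, linear axis, a separate scale for each gene) of the 8 proneural genes by stage, with WT in blue and KO in red; each point is 1 library, bars are means and whiskers SD of 3 replicates, cut at 0. Every panel but that of Atoh1 in WT peaks at day 9, and Neurog1 also has 2.62 to 7.42 FPKM in mESCs; Atoh1 stays under 0.8 FPKM throughout.

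By day 9 all 6 tested genes had risen in both lines. In WT the largest increases over day 7 were those of the pair Nhlh1 (4.49, SE 0.154) and Nhlh2 (4.20, SE 0.158), followed by Neurod4 (3.56), Neurog1 (3.54), Neurog2 (2.91) and Neurod1 (2.73), all on the log2(FPKM + 1) scale with adjusted p-values of at most 2.78e-09. In KO the order was Nhlh2 (3.98), Nhlh1 (3.71), Neurog2 (3.05), Neurog1 (2.79), Neurod4 (2.35) and Neurod1 (1.82), with adjusted p-values of at most 1.70e-06. Called increases made up 18.5% of tested genes in WT and 17.2% in KO. Because these genes, apart from Neurog1, pass the expression minimum mainly through day 9, their common rise is partly fixed by the filter and is not read further. The unfiltered sum over all 8 genes went from 3.86 ± 0.646 to 117 ± 15.8 FPKM in WT and from 3.12 ± 0.563 to 75.3 ± 15.1 FPKM in KO (SD, n = 3).

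Within WT day 9 cells the levels, which FPKM makes comparable per length, ran from Nhlh1 (33.3 ± 3.94 FPKM) and Nhlh2 (25.3 ± 5.37 FPKM) through Neurod4 (18.5 ± 1.57 FPKM), Neurog1 (16.0 ± 4.56 FPKM) and Neurog2 (13.5 ± 2.73 FPKM) to Neurod1 (7.98 ± 1.14 FPKM), Neurog3 (2.01 ± 0.154 FPKM) and Atoh1 (0.0302 ± 0.0524 FPKM). Neighbours whose libraries overlapped were Nhlh1 with Nhlh2, Neurod4 with Neurog1, and Neurog1 with Neurog2. In KO day 9 cells Neurod4 stood lower in the order, in place 5 at 6.51 ± 1.53 FPKM, behind Neurog2 (10.6 ± 1.80 FPKM) and Neurog1 (8.40 ± 2.88 FPKM), whose libraries overlapped each other and, for Neurog1, those of Neurod4.

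At day 9 the KO cells had less of 4 of the 6 tested genes: Neurod4, Neurod1, Neurog1 and Nhlh1 passed the test and were lower. Across all tested genes 6.68% were called at day 9 and 4.11% were called and lower in KO. The minimum on mean FPKM took out Neurog3 and Atoh1. The tested genes other than Neurog1, which was also present in mESCs, pass it mainly through day 9. The count in 1 direction is therefore partly set by the filter and is not read further. Without the minimum, Atoh1 was called and higher in KO (0.42, adjusted p = 0.00932). The median difference over the 6 tested members was -0.70 on the log2 scale, against 0 over all tested genes. This median is over the same filtered genes and is not read further either. The error of the test is pooled over all 8 groups, including stages where several of these genes were at 0. With the 2 day 9 groups fitted alone, the adjusted p was 0.00103 for Neurod4, 0.0156 for Neurod1 and 0.0434 for Nhlh1, and the call of Neurog1 was lost. In bulk RNA, fewer cells of a type and less RNA per cell cannot be told apart.

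Neurod4, a later-acting factor of the neuronal differentiation program, differed most. Its level was 16.8, 18.9 and 19.9 FPKM in WT and 5.77, 8.27 and 5.50 FPKM in KO. All KO libraries lay well below all WT libraries, at 35.2% of the WT mean. The log2 difference was -1.39 (SE 0.163, limma adjusted p = 5.76e-06), resting on 996 WT and 338 KO reads. It passed in every one of the alternatives and with every day 9 library left out in turn, with adjusted p-values up to 0.0268.

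Neurod1, the related factor that acts as neurons mature, stood at 8.37, 8.88 and 6.70 FPKM in WT and 1.64, 3.60 and 3.90 FPKM in KO. Here too the groups did not overlap, and the KO mean was 38.2% of the WT mean. The log2 difference was -1.19 (SE 0.216, limma adjusted p = 0.000892). Its call was lost with a pseudocount of 0.1 (adjusted p = 0.0649).

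Neurog1, an early determination factor, measured 21.1, 14.9 and 12.2 FPKM in WT and 6.13, 11.6 and 7.44 FPKM in KO. The highest KO library came close to the lowest WT library without reaching it. The log2 difference was -0.87 (SE 0.256, limma adjusted p = 0.0432). This call was the least stable: it was lost with the day 9 groups fitted alone (adjusted p = 0.0815), with a pseudocount of 0.1 (0.216), and without WT library 1 (0.206), WT library 2 (0.110), KO library 1 (0.248) or KO library 3 (0.136).

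Nhlh1, made in newly born neurons, was at 37.3, 33.4 and 29.4 FPKM in WT and 18.1, 24.9 and 25.5 FPKM in KO. The groups did not overlap, but the KO mean was still 68.5% of WT. The log2 difference of -0.54 (SE 0.154, limma adjusted p = 0.0363) was not called with a pseudocount of 0.1 (adjusted p = 0.511) or without WT library 1 (0.151), WT library 2 (0.123) or KO library 1 (0.267).

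Neurog2 and Nhlh2 did not pass the test at day 9. Neurog2, the other early determination factor, had 16.4, 13.2 and 11.0 FPKM in WT and 9.00, 10.2 and 12.5 FPKM in KO, with groups that overlapped. Its log2 difference was -0.32 with a 95% interval from -0.73 to 0.09 (adjusted p = 0.446). Nhlh2, the close relative of Nhlh1, had 30.8, 24.9 and 20.1 FPKM in WT and 16.6, 25.7 and 25.4 FPKM in KO, again overlapping. Its log2 difference was -0.16 with an interval from -0.49 to 0.17 (adjusted p = 0.703), and without KO library 1 it was 0.03. The intervals leave room for moderate decreases in both.

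All KO libraries lay below all WT libraries for 4 of the 6 tested genes, against 16.8% of all tested genes. This count is likewise partly set by the filter and is not read further. For Atoh1, which the filter took out, all KO libraries lay above all WT libraries. KO library 1 held the lowest KO value for Neurog1, Neurog2, Neurog3, Neurod1, Nhlh1 and Nhlh2, and WT library 1 the highest WT value for Neurog1, Neurog2, Nhlh1 and Nhlh2.

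**Figure D2:**
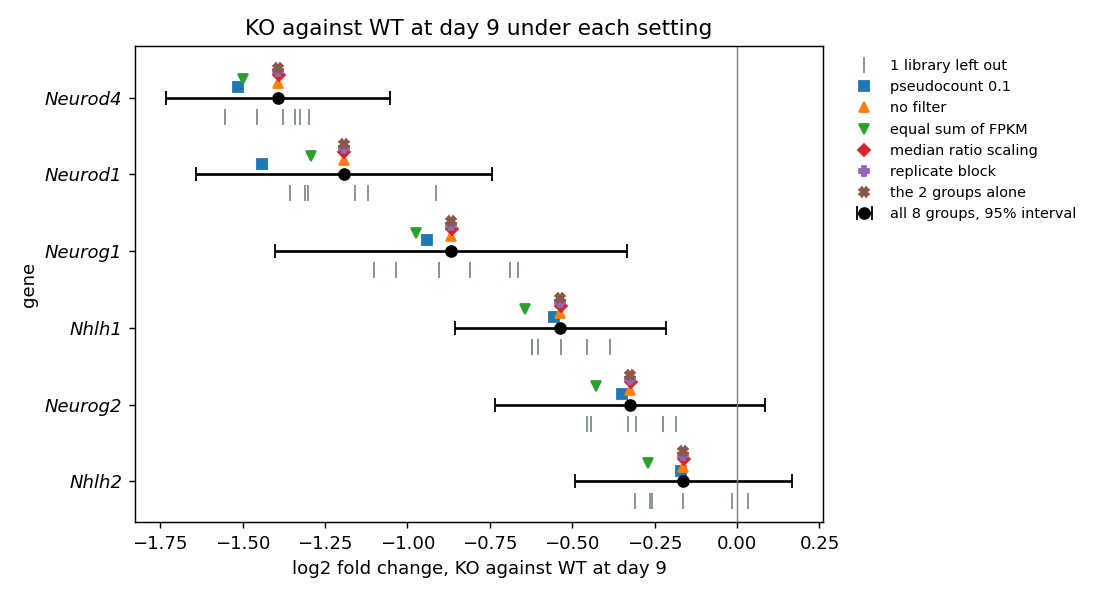
Log2 fold change of KO against WT at day 9 for the 6 tested genes (horizontal axis, on log2 of FPKM plus the pseudocount); black points and bars are estimates and 95% intervals from all 8 groups, coloured symbols the alternative settings and grey ticks the values with 1 library left out. Neurod4 and Neurod1 lie farthest below 0 (-1.39 and -1.19), and Nhlh2 crosses 0 when KO library 1 is left out (0.03).

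Whether some of these genes fell more than others was examined by taking ratios of levels within each day 9 library, a view added once the values were known, which also removes spread that genes share within a library. Of the 15 pairs of tested genes, which share genes with each other, 8 had ratios that did not overlap between the lines, against 35.0% of pairs of all tested genes above 0 in all 6 libraries. Nhlh2, the member with the smallest difference at day 9, was taken as the common denominator after the values were seen. Relative to Nhlh2, Neurod4 had a log2 ratio of -0.43 ± 0.43 in WT and -1.79 ± 0.37 in KO, and Neurod1 one of -1.65 ± 0.20 in WT and -2.96 ± 0.34 in KO (SD, n = 3). Neurog1 went from -0.67 ± 0.11 to -1.45 ± 0.32 and Nhlh1 from 0.41 ± 0.14 to 0.03 ± 0.08. In each of these 4 the 2 lines did not overlap, with an exact two-sided permutation p of 0.1, the smallest that 3 against 3 libraries can give. Neurog2 relative to Nhlh2 was -0.90 ± 0.02 in WT and -1.08 ± 0.23 in KO, with overlap (exact permutation p = 0.3).

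The log2 ratio of Neurod1 to Neurod4 was -1.22 ± 0.31 in WT and -1.17 ± 0.66 in KO, with libraries that overlapped (exact permutation p = 1.0). The spread of the KO libraries is too wide to show whether this ratio differed. Both later factors were lower in KO relative to Neurog2, which as the numerator gained 1.13 over Neurod1 and 1.18 over Neurod4 on the log2 scale without overlap (exact permutation p = 0.1 each). Relative to Nhlh1 the KO ratio minus the WT ratio was -0.92 for Neurod1 and -0.97 for Neurod4, again without overlap (exact permutation p = 0.1 each). With p-values no smaller than 0.1, none of these ratios can reach a threshold of 0.05, before or after adjustment over the 15 pairs compared.

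**Figure D3:**
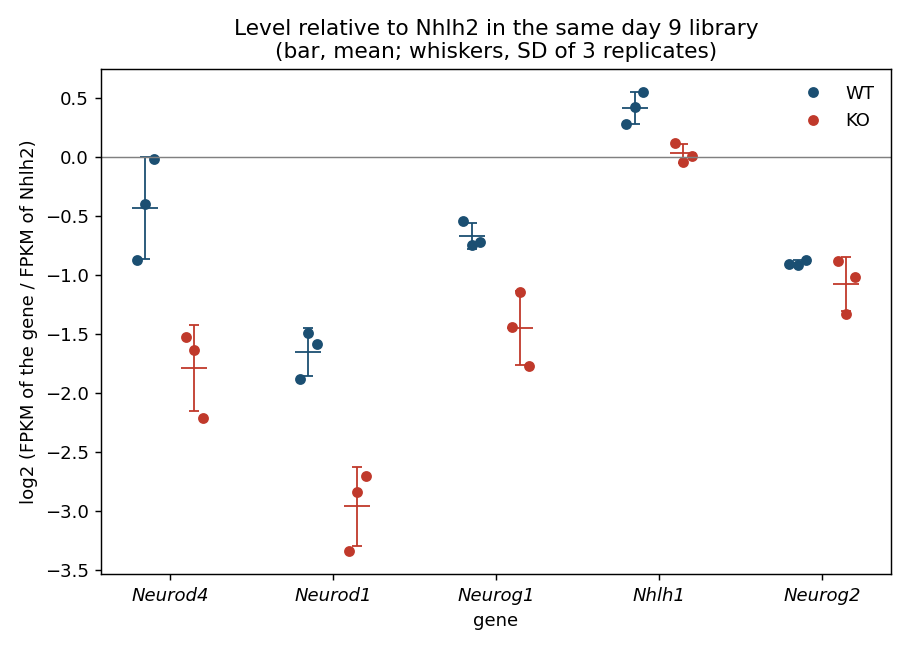
Log2 ratio of the FPKM of each gene to the FPKM of Nhlh2 in the same day 9 library (vertical axis), with WT in blue and KO in red; points are libraries, bars means and whiskers SD of 3 replicates. The KO points lie below the WT points for Neurod4, Neurod1, Neurog1 and Nhlh1, and overlap them for Neurog2.

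Neurog3 stood at 2.05, 1.84 and 2.14 FPKM in WT day 9 cells and at 0.537, 1.84 and 0.581 FPKM in KO day 9 cells, or 46 and 22 reads. The second KO library equalled the lowest WT library to within the worth of 1 read, and the exact two-sided permutation test gave p = 0.2. Its means at day 7 were 0.489 FPKM in WT and 0.497 FPKM in KO. The WT libraries of day 7 lay below those of day 9, the KO libraries of both days overlapped (up to 0.777 FPKM at day 7), and it was listed at 0 in all mESC and NSC libraries.

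Atoh1 was near 0 in WT throughout. Its WT day 9 values were 0.0907, 0 and 0 FPKM, a single read over 3 libraries, while the KO values were 0.285, 0.186 and 0.720 FPKM, or 12 reads. All KO libraries were above all WT libraries (exact permutation p = 0.1, the smallest possible), as they were in mESCs, where KO values of 0.229, 0.218 and 0.374 FPKM stood against 0.203, 0 and 0 FPKM in WT. In mESCs the lowest KO and the highest WT library held 2 reads each, and no library held more than 7. When the expression minimum was dropped and 18156 genes were tested, Atoh1 was called at day 9 (difference 0.42 on the log2(FPKM + 1) scale, adjusted p = 0.00932) and so was Neurog3 (-0.66, adjusted p = 0.0154).

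No member was called between KO and WT at day 7, where 3.68% of tested genes were called (1678 genes and 1 member at an unadjusted p under 0.05). Neurog2 had 0.348, 1.01 and 1.59 FPKM in WT and 0.329, 0.413 and 0.412 FPKM in KO. The wide WT range overlapped the narrow KO range (difference -0.47, SE 0.197, adjusted p = 0.263), and without WT library 1 the adjusted p was 0.0268. Neurod1 had 0.306 to 0.373 FPKM in WT and 0 to 0.181 FPKM in KO, without overlap but on 12 and 4 reads (adjusted p = 0.658).

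The KO effect at day 9 was also tested against the KO effect at other stages. It was more negative than in mESCs for Neurod4 (-1.39, SE 0.231, adjusted p = 0.000892), Neurog1 (-1.46, SE 0.363, adjusted p = 0.0292) and Neurod1 (-1.19, SE 0.305, adjusted p = 0.0361), where 2.68% of tested genes were called. For Neurod4 and Neurod1, which were at 0 in mESCs, this restates the day 9 difference with a larger error. Against day 7 the effect differed for Neurod4 alone among the tested members (-1.21, SE 0.231, adjusted p = 0.00441), where 1.83% of genes were called. For Nhlh1 (-0.78, adjusted p = 0.0789) and Neurod1 (-0.91, adjusted p = 0.186) the difference from day 7 did not pass. With a pseudocount of 0.1, none of these stage differences was called, and the Neurod1 and Neurog1 differences from mESCs were each lost in most of the fits with 1 library left out, with adjusted p-values up to 0.124 and 0.112.

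In NSCs all 6 tested genes were lower than at day 9 in both lines, by 1.80 (Neurod1) to 5.06 (Nhlh1) in WT and by 1.29 to 4.53 in KO on the log2 scale. Called decreases covered 30.3% of tested genes in WT and 32.4% in KO. Since these genes, apart from Neurog1, pass the expression minimum mainly through day 9, this fall too is partly fixed by the filter and is not read further. Neurog1, Neurog3, Atoh1 and Nhlh2 were listed at 0 in all 6 NSC libraries, and Neurod4 and Nhlh1 had 1 read in each line. Neurog2 had 6 reads in WT and 3 in KO. Neurod1 stood highest, with 1.91, 0.779 and 2.23 FPKM in WT and 0.639, 0.327 and 0.859 FPKM in KO, or 62 and 22 reads. The third KO library exceeded the second WT library, so the groups overlapped. The difference of -0.68 (SE 0.216) had an adjusted p of 0.0664 and one of 0.0391 when replicate numbers were blocked, and without WT library 2 it was 0.00850. Of all tested genes 6.02% were called between KO and WT NSCs, and no member was (1 member and 2196 genes at an unadjusted p under 0.05).

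Among the 7 tested genes of the other neural bHLH list, Olig3, a factor of dorsal progenitors, rose in KO at day 9 (1.31, adjusted p = 0.0210), and Olig2, a factor of motor neuron progenitors (-1.29, adjusted p = 0.0127), and Bhlhe22 (-0.84, adjusted p = 0.00676) fell. Of all tested genes, 2.58% were called and higher and 4.11% called and lower at day 9. In NSCs, where 6.02% of all tested genes were called, Bhlhe22 was called in the other direction, higher in KO.

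Partners and inhibitors of the proneural factors differed gene by gene at day 9, where 6.68% of all tested genes were called. Of 3 E proteins, Tcf12 rose from 79.9 ± 1.53 to 111 ± 6.48 FPKM (0.47, adjusted p = 0.0143), and Tcf3 and Tcf4 did not pass. None of the 4 Id genes was called (median difference 0.22). Among 4 tested Hes and Hey genes, Hey1 fell (-1.24, adjusted p = 0.00341) and Hes3 rose (0.87, adjusted p = 0.0245), while Hes1 (-0.09) and Hes5 (0.21) did not pass. Of 8 tested Notch receptors and ligands, Notch2 fell (-0.53, adjusted p = 0.0131), and the ligand Dll1, a classical proneural target, had a difference of 0.37 that did not pass (adjusted p = 0.443).

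Of 16 tested proneural targets, 3 fell in KO at day 9 and none rose, with a median of -0.37. Across all tested genes, 4.11% were called and lower and 2.58% called and higher at that stage. Insm1, a zinc finger factor of newborn neurons and endocrine cells, went from 46.7 ± 6.56 to 20.5 ± 5.03 FPKM (-1.17, adjusted p = 0.000910). St18, a relative of Myt1, went from 9.53 ± 0.495 to 4.26 ± 1.24 FPKM (-1.03, adjusted p = 6.52e-05), and the splicing factor gene Srrm4 fell by 0.57 (adjusted p = 0.0352). At day 7 the targets Dll3 (-1.22, adjusted p = 0.0172) and Eomes (-1.05, adjusted p = 0.000650) were lower in KO and Srrm4 was higher. The shares of all tested genes at day 7 were 2.5% called and lower and 1.18% called and higher.

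Some neuronal genes were lower in KO at day 9 and in NSCs. Of 13 tested neuron markers 7 fell at day 9 and none rose (median -0.80, with 4.11% of all tested genes called and lower), among them Gap43 of growth cones (-1.80, adjusted p = 8.49e-05) and the neurofilament gene Nefl (-1.56, adjusted p = 0.000444). Tubb3, from 361 ± 15.5 to 232 ± 47.1 FPKM, did not pass (-0.66, adjusted p = 0.485). The summed level of the list ran from 1070 to 1265 FPKM in WT and from 470 to 664 FPKM in KO day 9 libraries. Dcx, on the X chromosome, was listed at 0 throughout because X-linked reads had been discarded, so its level could not be measured. At day 7 the sums were 153 to 202 FPKM in WT and 213 to 255 FPKM in KO, with Stmn3 the 1 called gene (0.85, adjusted p = 0.0179). In NSCs, where Neurod1 was the 1 member well above 0, 3 of the 13 markers fell, against 3.48% of all tested genes called and lower. They were Gap43 (-1.11, adjusted p = 0.0120), Stmn3 (-1.30, adjusted p = 0.000377) and Syt1 (-1.81, adjusted p = 0.0167), and the sums were 202 to 254 FPKM in WT and 87.8 to 126 FPKM in KO.

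Genes of neural territories differed between the lines as well. Of all tested genes, 4.11% were called and lower and 2.58% called and higher in KO at day 9, and 2.5% and 1.18% at day 7. Of 7 tested genes of the motor neuron domain 6 fell at day 9 (median -1.58), led by Isl1 (29.3 ± 6.68 to 1.27 ± 1.17 FPKM, -3.84) and Nkx6-1 (103 ± 19.3 to 13.0 ± 12.6 FPKM, -3.25), and 4 fell at day 7, led by Nkx6-2 (-3.17) and Mnx1 (-2.05). Of 8 tested genes of the Atoh1 domain and lineage 7 rose at day 9 (median 2.72), led by the dorsal factors Msx3 (0.966 ± 1.08 to 33.7 ± 7.14 FPKM, 4.25) and Zic1 (2.38 ± 0.798 to 39.5 ± 15.8 FPKM, 3.53). At day 7, 3 of those 8 had risen, led by Wnt1 (3.00) and Lhx2 (1.97), and 1 had fallen.

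Markers of other cells that could carry these factors were examined in the same way, beside 6.68% of all tested genes called at day 9 and 3.68% at day 7. Of 3 tested endoderm and endocrine genes 2 fell at day 9, Foxa2 (-2.85, adjusted p = 7.10e-05) and Foxa1 (-1.91, adjusted p = 0.000218), and 3 fell at day 7, with summed levels over the 6 listed genes of 30.0 to 57.5 FPKM in WT and 3.14 to 12.9 FPKM in KO at day 9. Among 6 placode and neural crest genes, Tfap2a rose (1.85, adjusted p = 3.00e-06) at day 9, and sums were 18.3 to 22.4 FPKM in WT and 17.1 to 23.5 FPKM in KO. Of 4 neurectoderm markers Sox1 (0.74, adjusted p = 0.0197) and Pax6 (0.83, adjusted p = 0.0368) rose, of 5 NSC markers Slc1a3 (-1.50, adjusted p = 0.000381) and Olig2 fell, and none of 5 mESC markers was called. The part of these cell populations in the differences of the proneural genes was not tested.

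**Figure D4:**
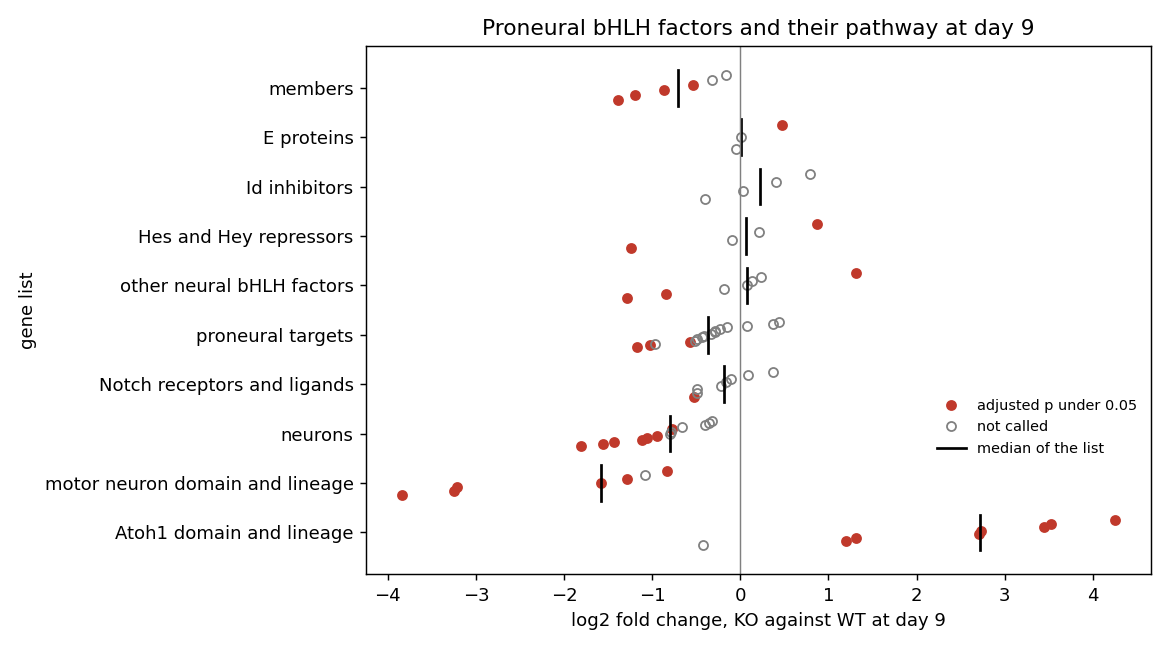
Log2 fold change of KO against WT at day 9 (horizontal axis, on log2 of FPKM plus 1) for tested genes of 10 lists, 1 list a row; filled points have an adjusted p under 0.05, open points do not, and black lines are list medians. The tested proneural genes have a median of -0.70, neuron genes -0.80, motor neuron domain genes -1.58 and Atoh1 domain genes 2.72.

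The genes whose course was most like that of each member, by Pearson correlation over the 8 group means of log2(FPKM + 1) among 10676 tested genes reaching 5 FPKM, are given as a description, since a shared peak at day 9 sets most of the likeness. Nhlh1 and Nhlh2 were each among the 3 nearest genes of the other (r = 0.998). Closest to Nhlh1 were Sst (0.999), the gene of the peptide somatostatin, and Ptx3 (0.998), and closest to Nhlh2 were Grm2 (1.00), a glutamate receptor gene, and Klhl35 (0.999).

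Nearest to Neurog2 were Nhlh2 (0.993), Grm2 (0.993) and Nhlh1 (0.993). Neurod4 was followed most closely by Gm16551 (0.997), Elavl4 (0.994), an RNA-binding protein gene of neurons, and Nxph4 (0.993). Gm16551 stood at 16.8 ± 2.51 FPKM in WT and 6.95 ± 1.92 FPKM in KO at day 9, Elavl4 at 50.2 ± 1.06 and 23.1 ± 4.72 FPKM. Neurod1 was nearest to BC017643 (0.987), Stmn4 (0.978) and Spns2 (0.973), and Neurog1, the member also present in mESCs, to Chst8 (0.971), Brwd1 (0.966) and Sncg (0.966).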

How the data were processed

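RNA-seq was made in 24 libraries. Per the paper's methods the authors trimmed single-end reads with Trim Galore 0.6.6, aligned them to mm9 with TopHat2 2.1.1, discarded ribosomal and X-linked reads and estimated expression with Cuffdiff. What was deposited is the authors' FPKM for each gene and library, with an estimate status. The library normalization, read totals and counting by strand are not given in the sources used here. Another 12 FPKM columns of the table were not used.

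Genes on X or Y and 1 gene with a failed estimate were left out. The 12105 genes with a mean of at least 1 FPKM were tested with limma 3.58.1 (R 4.3.3) on log2(FPKM + 1), with all 8 groups in the fit, trend and robust settings, no replicate block, two-sided p-values and Benjamini-Hochberg adjustment over all tested genes. A call is an adjusted p under 0.05. A fold change on this scale understates changes of low genes. Same-numbered WT and KO libraries deviated together in mESCs (correlations of 0.289, 0.435 and 0.141) and NSCs (0.335, 0.184 and 0.240), and not at day 7 or day 9, so blocked values stand beside the mESC and NSC results where they change a call. Reads per gene were worked out from the smallest FPKM steps, whole within 0.1 of a read, and cover counting error only. E-box and N-box letters were matched in the 250 bases before RefSeq start sites (GRCm38.p6), a build other than that of the FPKM. Alternatives were a pseudocount of 0.1, no expression minimum, equal sums of FPKM, median ratio scaling, the compared groups alone, the block, and each library left out.

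The members and gene lists were chosen with earlier results of these data known. Genes named are the 8 members, Smchd1, the stage markers Pou5f1, Nanog, Sox1, Pax6, Nes, Fabp7, Olig2 and Tubb3, for each list the 2 called genes with the largest change at day 7 and at day 9, and the 3 genes most like each member; Bhlhe22, Srrm4, Dcx, the neuron markers named in NSCs and the partners and inhibitors named without a call were added after their values were seen. Some genes that the rule picks are left out of the text.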

Additional observations from a re-analysis of the deposited data

Results flagged for a closer look

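The difference between KO and WT at day 9 minus that at an earlier stage passed the limma test for 3 of the 6 tested proneural genes. Of all tested genes, 2.68% passed for day 9 minus mESCs and 1.83% for day 9 minus day 7. Neurod4 and Neurod1 were at 0 in all 6 mESC libraries, so their values against mESCs restate the day 9 difference and show no change of their own. For Neurod4 the KO effect at day 9 minus that in mESCs was -1.39 (SE 0.231, adjusted p = 0.000892), and minus that at day 7 it was -1.21 (SE 0.231, adjusted p = 0.00441). For Neurog1 the KO effect at day 9 minus that in mESCs was -1.46 (SE 0.363, adjusted p = 0.0292), made up of a difference of 0.59 in mESCs that did not pass and one of -0.87 at day 9. For Neurod1 it was -1.19 (SE 0.305, adjusted p = 0.0361), which equals its day 9 difference. With 1 library left out, the Neurog1 call held in 4 of 12 fits and the Neurod1 call in 3 of 12, and with a pseudocount of 0.1 none of these calls held. With 3 replicates in each group, no test for single libraries that stand apart was made.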

How the results depend on the processing

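With a pseudocount of 0.1, the members called at day 9 went from 4 to 1 (Neurod4), and those called for the KO effect at day 9 minus that in mESCs and minus that at day 7 both went to 0. The replicate block called 1 member in NSCs (Neurod1) and changed no other member call between KO and WT. Leaving out 1 library gave 0 to 1 members called between KO and WT in mESCs, at day 7 and in NSCs, 2 to 4 at day 9, 1 to 3 for day 9 minus mESCs and 1 to 2 for day 9 minus day 7; the cause was not tested. The sign of the Nhlh2 difference changed: leaving out 1 library gave -0.31 to 0.034 at day 9 (above 0 without KO library 1) and -0.012 to 0.11 at day 7 (below 0 without WT library 3). Differences that were not called also crossed 0 in NSCs for Neurog2 (-0.20 to 0.061), Nhlh1 (-0.038 to 0.038) and Neurod4 (-0.028 to 0.027), and Neurog2 did so for day 9 minus day 7 (-0.075 to 0.40). Equal sums of FPKM moved the median of all genes by -0.10 between KO and WT at day 9 and by up to 0.21 between stages.

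Counts over all genes moved more. In mESCs the 64 genes called became 164 with no minimum, 42 with equal sums, 98 with the block, 1 with the compared groups alone and 20 to 112 with 1 library left out. At day 9 the 809 became 1221 with no minimum, 1377 with the groups alone and 449 to 752 with 1 library left out. In NSCs the 729 became 1145 with the block, 58 with the groups alone and 406 to 1352 with 1 library left out, and at day 7 the 446 became 273 to 521. Levels under about 1 FPKM rest on a handful of reads in each library, which limits Atoh1, Neurog3 and all members at day 7.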
